A study of Mus musculus with 4 samples.

Results

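The ATF4 amino acid programme and the tRNA synthetases were described in group 2 innate lymphoid cells (ILC2s) from bronchoalveolar lavage (BAL) fluid of mice. The set of 48 genes was taken by gene symbol, by a rule that names the genes and no values, although it was drawn up with earlier results of these data known. All 48 were found among the 24537 genes of each library. It held the transcription factor *Atf4* and 3 factors of the same response, 4 stress effectors, 13 enzymes of amino acid and one-carbon metabolism, 7 amino acid transporters and 20 cytosolic aminoacyl-tRNA synthetases. In 47 of the 48 the mean reached the minimum of 2 RPKM (reads per kilobase of transcript, relative to the reads of the library) used for testing, and the cystine transporter gene *Slc7a11* stayed below it.

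ATF4 is the effector transcription factor of the integrated stress response. Kinases that sense amino acid shortage, unfolded proteins in the endoplasmic reticulum, haem shortage or double-stranded RNA phosphorylate the initiation factor eIF2α, which lowers general translation while the *Atf4* mRNA is translated more efficiently, so that ATF4 protein can rise without a rise in its mRNA. ATF4 binds DNA together with C/EBP family proteins and is known to activate genes for amino acid synthesis, amino acid uptake and the charging of tRNAs, and in activated lymphocytes such genes are also known to be engaged during growth.

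The IL-33 group consisted of 2 libraries from mice given 3 doses of 0.5 µg IL-33, a cytokine of the alarmin type to which ILC2s respond. The chronic HDM group consisted of 2 libraries from mice given 25 µg house dust mite extract (HDM) 3 times a week for 5 weeks. Mice were 8 to 16 weeks old at analysis and on a C57BL/6 background, and cells were sorted 1 day after the final challenge as lineage-negative Sca-1+ YFP+ cells, by a yellow fluorescent protein reporter inserted in the *Gata3* gene that all mice carried. The labels give the IL-33 mice as Gata3-YFP/YFP and the HDM mice as Gata3-YFP/WT, and the populations as CD25High and CD25Low, while the study's methods name homozygous reporter mice only and no CD25 gate for this sort. Stimulus, genotype and the CD25 label therefore cannot be told apart. The number of mice per library is not given in the sources used here, so a p-value here reflects how far these 4 libraries vary, and that variation may be technical. In bulk libraries such as these, fewer cells with a transcript and less of it per cell cannot be told apart either.

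The libraries held 10696040 to 12054780 reads in genes after IL-33 and 15650719 to 16092276 after chronic HDM, of which 45S ribosomal RNA took 3.45% to 4.95% and 17.4% to 25.4%. The median member was covered by 3145 and 2665.5 reads in the IL-33 libraries and by 1765.5 and 1477.5 reads in the chronic HDM libraries. Of the 12 ILC2 markers examined all were tested, 5 were higher in both IL-33 libraries, 5 were higher in both chronic HDM libraries and 2 overlapped. *Gata3*, the transcription factor gene that carries the reporter, was at 14.9 and 18.9 RPKM in IL-33 and at 216 and 195 RPKM in chronic HDM libraries, and *Il1rl1*, which encodes the IL-33 receptor, at 77.3 and 79.9 against 217 and 205 RPKM. In the other direction, *Il2ra*, which encodes CD25, was at 432 and 376 against 27.6 and 22.0 RPKM, and the cytokine gene *Il5* at 738 and 626 against 151 and 145 RPKM; all 4 were called. *Cd4*, *Cd8a*, *Cd8b1*, *Cd5*, *Ms4a1*, *Pax5* and *Ly6g*, markers of T cells, B cells and neutrophils, had no reads in any library, while other markers of these and further cell types were present. The T cell list summed to 79.9 and 104 RPKM in the IL-33 libraries, against 71.6 and 83.5 RPKM in the chronic HDM libraries, nearly all of it *Cd3g*, and the B cell list to 38.4 and 27.4 against 8.74 and 6.80 RPKM, nearly all of it *Cd79b*. The neutrophil list summed to 0.42 and 0 against 14.1 and 6.46 RPKM (*S100a8*), the basophil and mast cell list to 52.3 and 44.6 against 0 and 2.87 RPKM (mostly *Mcpt8* after IL-33), and the dendritic cell list to 221 and 217 against 15.4 and 18.4 RPKM (mostly *Ccr7* after IL-33). The eosinophil list stayed at 7.46 RPKM or less, and the airway epithelium list was at 14.5 and 5.52 against 25.7 and 76.0 RPKM. The 13 macrophage markers in the files, mostly *Chil3* and *Lyz2*, summed to 1273 and 289 RPKM in the IL-33 libraries, against 3160.3 and 8669 RPKM in the chronic HDM libraries. Of the 10 tested, 6 were higher in both chronic HDM libraries, 4 overlapped and 0 were higher in both IL-33 libraries. The 3 others, *Marco*, *C1qa* and *C1qb*, were under the minimum, each at 5.50 RPKM or less. All 12 cell division genes examined were higher in both IL-33 libraries than in both chronic HDM libraries, with sums of 1052 and 1122 RPKM against 22.3 and 34.8 RPKM. The part of the ribosomal RNA, the transcripts of other cell types and the dividing cells in the results that follow was not tested, apart from the scaling without 45S RNA given below.

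The programme as a whole was higher in IL-33-stimulated ILC2s. The 48 genes summed to 6043 and 5913 RPKM in the IL-33 libraries and to 2401 and 1916 RPKM in the chronic HDM libraries, a 2.77-fold difference of the means. In 40 of the 47 genes tested both IL-33 libraries lay above both chronic HDM libraries, against 41.7% of all 9523 genes tested. In 3 the order was opposite, against 23.5% of all genes, and these were the transcription factor gene *Cebpb*, the transporter gene *Slc38a2* and the valyl-tRNA synthetase gene *Vars*. The groups overlapped for *Atf4*, *Atf5*, *Slc7a1* and *Slc1a5*.

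Values were compared with limma as log2(RPKM + 1), on which changes of low genes appear too small. Of the 47 genes, 12 passed both an adjusted p of 0.01 and a minimum log2 fold change of 1 and were called higher after IL-33, a share of 25.5%, while the same call was made for 2.80% of all genes tested. None was called higher after chronic HDM, where the share of all genes was 0.536%. At an adjusted p under 0.05 with the same minimum fold, 31 members were higher after IL-33, where 13.8% of all genes tested passed, and 2 after chronic HDM, where 4.78% passed. The median log2 fold change was 1.62 for the members and 0.28 for all genes tested, and 20 of the 47 lay at or above the 90th percentile of all genes. The 12 called members were *Asns*, *Gpt2*, *Phgdh*, *Psat1*, *Shmt1*, *Shmt2*, *Mthfd2*, *Slc3a2*, *Aars*, *Eprs*, *Iars* and *Yars*.

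**Figure D1:**
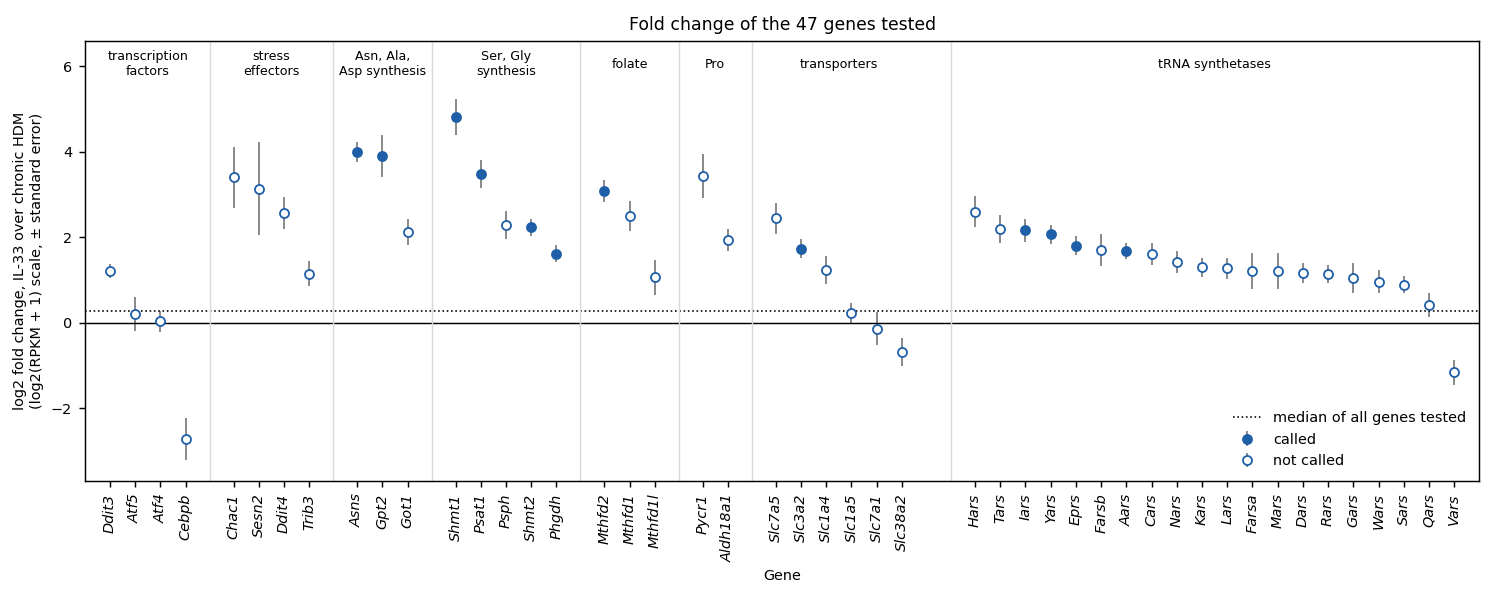
The vertical axis gives the difference in log2(RPKM + 1) between IL-33 and chronic HDM libraries, with its standard error from limma, for each of the 47 genes tested, by role; filled points were called, and the dotted line is the median of all genes tested, 0.28. Of the points, 40 lie above that median, and *Cebpb* at -2.72 and *Vars* at -1.16 lie farthest below 0.

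The counts moved with the settings, and most directions did not. Without IL-33 replicate 1 or 2 the median log2 fold change of the members was 1.60 and 1.65, against 0.28 and 0.25 for all genes. Without chronic HDM replicate 1 or 2 the members' median was 1.77 and 1.46, against 0.32 and 0.23 for all genes. On read counts recovered from the RPKM values, limma-voom called 0 members and 0 of all 9523 genes at an adjusted p under 0.01. Its smallest adjusted p among members, 0.0148, was that of *Asns*. In every one of the 17 alternative settings that tested them 40 members kept a positive and 3 a negative log2 fold change, and the other 4 were those whose groups overlapped. The minimum, the variance model, the replicate block and the thresholds leave a log2 fold change as it is, so these settings could not change a sign. Only the pseudocount, the scaling, limma-voom and the left-out libraries could. Scaling without 45S ribosomal RNA moved the median of all genes from 0.28 to 0.03 and that of the members to 1.34, and quantile normalization moved them to 0.00 and 1.10.

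ATF4 and C/EBP proteins together bind a sequence called the C/EBP-ATF response element, and the members' promoters were searched for it. The letters TGATGNAA were searched on both strands of RefSeq promoter windows (GRCm38.p6, the build also called mm10) reaching from 250 bases before to 50 bases after the start site, and 38 of the 48 genes had a window. A match was found in 12 of these 38 (31.6%), in 158 of 7375 windows of genes tested (2.14%) and in 1304 of all 32851 windows (3.97%). The 12 were *Trib3*, *Chac1*, *Asns*, *Got1*, *Pycr1*, *Slc7a11*, *Slc1a4*, *Aars*, *Gars*, *Iars*, *Tars* and *Yars*, so that 5 of the windows with a match belonged to tRNA synthetase genes. A match is a description of the letters and not a bound site.

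Of the 4 called members with a match, the stretches of *Asns*, *Iars* and *Yars* are shown as examples. Whether the match bears on the difference between groups was not tested. Each stretch of 30 bases is read in the direction of the gene, and capitals mark the match, which for *Iars* is on the opposite strand and so reads as TTNCATCA. The stretches lie at chr6:7693214-7693243 on the minus strand for *Asns*, chr13:49682126-49682155 on the plus strand for *Iars* and chr4:129189895-129189924 on the plus strand for *Yars*.
Asns: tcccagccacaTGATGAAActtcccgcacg
Iars: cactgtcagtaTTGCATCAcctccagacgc
Yars: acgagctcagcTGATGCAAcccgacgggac
Counted from the RefSeq start site as 0, the first base of the match lies at position -23 in *Asns*, 7 in *Iars* and 3 in *Yars*. The start site of the window is 27 bases from that of the transcript counted in the files for *Asns* and 108 bases from it for *Yars*, and 0 for *Iars*.

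Among tested members, the 11 with a match had a median log2 fold change of 2.13, with 4 called, and the 26 with a window but no match had a median of 1.66, with 8 called. Among other tested genes the medians were 0.24 for the 147 with a match and 0.28 for the 7191 without. Outside the set, genes with the letters thus had about the same median as genes without them. No test was run on these groups.

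The mRNA of *Atf4* itself overlapped between the groups. *Atf4* was at 128 and 125 RPKM in the IL-33 libraries, against 102 and 150.4 RPKM in the chronic HDM libraries (log2 fold change 0.03 with a standard error of 0.24, adjusted p = 0.949). The chronic HDM libraries lay on either side of the IL-33 pair. This log2 fold change ranged from -0.48 with quantile normalization to 0.30 without chronic HDM replicate 2, so that its sign is not fixed. *Atf5*, a related factor that is induced in the same response, was at 8.55 and 10.1 RPKM against 6.34 and 10.045 RPKM (log2 fold change 0.20, adjusted p = 0.754), again with overlapping groups. *Nup62* overlaps 4.1% of the exon bases of *Atf5* on the other strand. *Nup62* was far higher than *Atf5*, at 86.4 and 89.6 RPKM in the IL-33 libraries against 17.7 and 27.2 RPKM in the chronic HDM libraries. Its part in the *Atf5* values was not tested.

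*Ddit3* encodes CHOP, a C/EBP family factor that is induced downstream of ATF4. It was at 453 and 385 RPKM in the IL-33 libraries, against 181 and 179 RPKM in the chronic HDM libraries, so that both IL-33 libraries were above both others, with a log2 fold change of 1.21 (standard error 0.17) and an adjusted p of 0.0116, just short of the call. *Cebpb* encodes C/EBPβ, a partner of ATF4, and had the opposite order, with 0.605 and 0.787 RPKM in the IL-33 libraries, against 7.97 and 12.9 RPKM in the chronic HDM libraries (log2 fold change -2.72 with a standard error of 0.49, adjusted p = 0.0199). Of the exons of *Cebpb*, 20.7% are overlapped on the other strand by *Tmem189*, which was at 7.99 and 7.55 RPKM against 0 and 5.40 RPKM, and the counting is not stated to use strand. No factor of this group of 4 was called, and their median log2 fold change was 0.11.

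Ratios to *Atf4* within the same library were taken only for *Asns*, *Psat1*, *Mthfd2* and *Ddit3*, and these separated the groups. They are not typical of all members, since *Slc7a1* overlapped between groups and *Slc38a2* had the opposite order. With *Atf4* at a log2 fold change of 0.03, the ratios largely restate the differences of the chosen genes. The RPKM of *Asns* was 2.97 and 2.26 times that of *Atf4* in the IL-33 libraries and 0.191 and 0.131 times in the chronic HDM libraries. For *Psat1* the ratios to *Atf4* were 1.85 and 1.84 against 0.263 and 0.0982, and for *Mthfd2* they were 1.96 and 2.19 against 0.359 and 0.162. *Ddit3* differed less, with 3.54 and 3.09 against 1.77 and 1.19. Such ratios within a library do not change when the whole library is scaled.

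**Figure D2:**
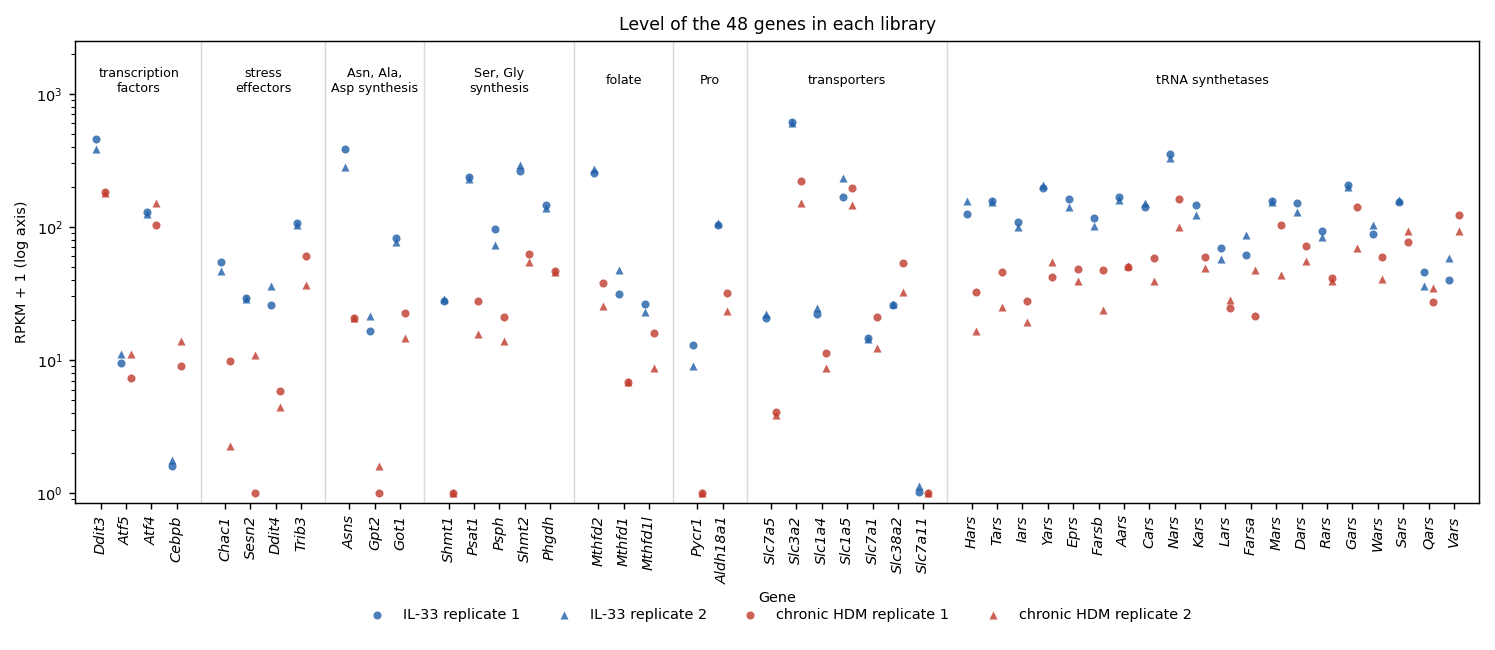
Each point is the RPKM + 1 of a gene in one library, on a log axis, for all 48 genes by role (blue, IL-33; red, chronic HDM; circles, replicate 1; triangles, replicate 2). The blue points lie above the red in 40 of the 47 genes tested, while *Atf4* is mixed, and *Shmt1* and *Pycr1* sit at the bottom of the axis, at 0 RPKM, in both chronic HDM libraries.

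The 4 stress effectors were all higher in both IL-33 libraries, and none was called. Their median log2 fold change was 2.85, and 3 passed an adjusted p of 0.05. *Chac1*, which encodes a glutathione-degrading enzyme, was at 53.0 and 45.2 RPKM in the IL-33 libraries, against 8.91 and 1.25 RPKM in the chronic HDM libraries (log2 fold change 3.40 with a standard error of 0.71, adjusted p = 0.0293), and the chronic HDM replicates were far apart. *Ddit4*, an inhibitor of mTORC1 also called REDD1, was at 24.7 and 34.8 RPKM against 4.89 and 3.43 RPKM (log2 fold change 2.57, standard error 0.37, adjusted p = 0.0127).

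*Trib3*, a pseudokinase that feeds back on ATF4 and CHOP, was at 106 and 102 RPKM against 59.9 and 35.6 RPKM (log2 fold change 1.15, standard error 0.30, adjusted p = 0.0494). *Sesn2*, a leucine sensor upstream of mTORC1, was at 28.3 and 27.8 RPKM against 0 and 9.89 RPKM. Its log2 fold change of 3.14 had a standard error of 1.09 (adjusted p = 0.101) and rested on chronic HDM replicate 1, without which it was 1.42. The stress effectors thus shared an order between groups. On the log2(RPKM + 1) scale the chronic HDM replicates differed by more than the IL-33 replicates for *Chac1*, *Trib3* and *Sesn2*.

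The 3 genes of asparagine, alanine and aspartate synthesis had a median log2 fold change of 3.90, and 2 of them were called higher after IL-33. *Asns* (chr6:7675171-7693182, mm10), the asparagine synthetase gene whose element is printed above, was at 380.3 and 282 RPKM in the IL-33 libraries, against 19.5 and 19.7 RPKM in the chronic HDM libraries, a 16.9-fold difference of the means (log2 fold change 4.0, standard error 0.23, adjusted p = 0.00497). That adjusted p is the smallest in the whole fit and was shared by 11 genes. *Gpt2* (chr8:85492617-85527558), the mitochondrial alanine aminotransferase, was at 15.6 and 20.6 RPKM against 0 and 0.607 RPKM (log2 fold change 3.90, standard error 0.49, adjusted p = 0.00994). *Got1*, the cytosolic aspartate aminotransferase, was at 80.8 and 76.5 RPKM against 21.6 and 13.7 RPKM and was not called (log2 fold change 2.13, standard error 0.30, adjusted p = 0.0121). None of the 3 genes overlapped between groups.

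All 5 genes of serine and glycine synthesis lay higher in both IL-33 libraries, and 4 of them were called. The pathway starts from a glycolytic intermediate, 3-phosphoglycerate. Its first enzyme, *Phgdh* (chr3:98313171-98339969), was at 145 and 138 RPKM against 45.7 and 45.02 RPKM (log2 fold change 1.62, standard error 0.19, adjusted p = 0.00932). The next, the transaminase *Psat1* (chr19:15905123-15925059), was at 236 and 229 RPKM against 26.8 and 14.8 RPKM (log2 fold change 3.48, standard error 0.32, adjusted p = 0.00687).

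*Psph*, the phosphatase that completes serine synthesis, was at 96.1 and 72.2 RPKM against 20.2 and 12.9 RPKM and missed the call (log2 fold change 2.29, standard error 0.32, adjusted p = 0.0120). A *Cct6a* transcript overlaps 6.2% of the exons of *Psph* on the other strand. *Cct6a* was at 219 and 219 RPKM in the IL-33 libraries against 70.0 and 81.3 RPKM in the chronic HDM libraries. Its part in the *Psph* values was not tested. Of the serine hydroxymethyltransferases, which make glycine and pass a carbon unit to folate, the mitochondrial *Shmt2* (chr10:127517123-127522444) was at 261 and 289 RPKM against 62.0 and 53.5 RPKM (log2 fold change 2.23, standard error 0.19, adjusted p = 0.00687). The cytosolic *Shmt1* (chr11:60788897-60811265) was at 26.8 and 27.7 RPKM, from 720 and 666 reads, after IL-33 and had no read in either chronic HDM library. It was at least 350.0-fold higher after IL-33 against a floor of 3 reads per library, a floor that covers counting error only (adjusted p = 0.00687).

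The folate enzymes that carry the resulting one-carbon units had the same order in all 3 genes. *Mthfd2* (chr6:83305704-83317604), the mitochondrial dehydrogenase and cyclohydrolase, was the called one, at 251 and 273 RPKM against 36.7 and 24.3 RPKM (log2 fold change 3.09, standard error 0.26, adjusted p = 0.00687). *Mthfd1*, the trifunctional cytosolic enzyme, was at 30.2 and 46.5 RPKM against 5.88 and 5.83 RPKM (log2 fold change 2.49, standard error 0.35, adjusted p = 0.0120). *Mthfd1l*, the mitochondrial formate-producing enzyme, was at 25.4 and 21.9 RPKM against 15.0 and 7.66 RPKM (log2 fold change 1.06, standard error 0.40, adjusted p = 0.121). The ratio of *Mthfd2* to *Mthfd1* in RPKM was 8.30 and 5.88 in the IL-33 libraries and 6.25 and 4.18 in the chronic HDM libraries, which overlap.

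Neither gene of proline synthesis was called, and both lay higher in both IL-33 libraries. *Aldh18a1*, which makes the proline precursor from glutamate, was at 102 and 106 RPKM against 31.1 and 22.5 RPKM (log2 fold change 1.94, standard error 0.25, adjusted p = 0.0108). *Pycr1*, the mitochondrial reductase of the last step, was at 11.9 and 8.04 RPKM, from 453 and 274 reads, with no read after chronic HDM, and was at least 181.5-fold higher by its reads against the same floor (adjusted p = 0.0129). The median of the pair was 2.69 on the log2(RPKM + 1) scale and 4.72 with *Pycr1* at its bound.

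The transporters were divided. Of the 7, 6 were tested, 1 was called, 3 were higher in both IL-33 libraries, 1 was higher in both chronic HDM libraries and 2 overlapped. *Slc3a2* (chr19:8706882-8713897), the heavy chain CD98 that several light chains need to reach the surface, was at 615 and 606 RPKM against 221 and 151 RPKM (log2 fold change 1.73, standard error 0.22, adjusted p = 0.00994). Its light chain *Slc7a5* (LAT1), which imports leucine and other large neutral amino acids, was at 19.7 and 21.3 RPKM against 3.05 and 2.87 RPKM and was not called (log2 fold change 2.44, standard error 0.36, adjusted p = 0.0127). *Slc3a2* was 31.2 and 28.4 times as high as *Slc7a5* per length in the IL-33 libraries and 72.5 and 52.7 times in the chronic HDM libraries.

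*Slc1a4*, a transporter of neutral amino acids such as serine and alanine, was at 21.3 and 23.4 RPKM against 10.3 and 7.73 RPKM (log2 fold change 1.23, standard error 0.33, adjusted p = 0.0522). Its relative *Slc1a5* (ASCT2), which carries glutamine, had overlapping groups, with values of 168 and 232 RPKM against 196 and 146 RPKM (log2 fold change 0.22, adjusted p = 0.560). *Slc7a1*, an arginine and lysine transporter, overlapped likewise (log2 fold change -0.14, adjusted p = 0.817). *Slc38a2* (SNAT2), well known for its induction by amino acid shortage, was at 24.8 and 25.3 RPKM in the IL-33 libraries, against 52.5 and 31.3 RPKM in the chronic HDM libraries (log2 fold change -0.68 with a standard error of 0.33, adjusted p = 0.197). *Slc7a11* was at 0.017 and 0.139 RPKM, from 2 and 15 reads, after IL-33 and had no read after chronic HDM, too little for a comparison. Its window holds the letters on both strands.

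Among the 20 cytosolic tRNA synthetases, which join each amino acid to its tRNA, 19 were higher in both IL-33 libraries and 4 were called. Together they summed to 2718 and 2668 RPKM in the IL-33 libraries, against 1243 and 942 RPKM in the chronic HDM libraries, and their median log2 fold change was 1.28, below that of the enzymes of serine and asparagine synthesis. The 4 called were those for alanine, isoleucine and tyrosine and the bifunctional enzyme for glutamate and proline. *Yars* (chr4:129189795-129219607) was at 196 and 207 RPKM against 41.3 and 53.8 RPKM (log2 fold change 2.07, standard error 0.22, adjusted p = 0.00723). *Aars* (chr8:111033842-111055569) was at 166 and 158 RPKM against 49.0 and 50.1 RPKM (log2 fold change 1.68, standard error 0.19, adjusted p = 0.00816). In both, replicates lay close together in each group.

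*Eprs* (chr1:185363095-185428355) was at 161 and 140.2 RPKM against 46.99 and 38.5 RPKM (log2 fold change 1.80, standard error 0.22, adjusted p = 0.00968). *Iars* (chr13:49682130-49734267) was at 108 and 98.9 RPKM against 26.9 and 18.4 RPKM (log2 fold change 2.16, standard error 0.27, adjusted p = 0.00994). The synthetase with the largest log2 fold change, *Hars* at 2.60, was not called, with 124 and 155 RPKM against 31.4 and 15.5 RPKM (adjusted p = 0.0126). Its exons share 195 bases with *Hars2* on the other strand. *Tars* was likewise not called at 155 and 151 RPKM against 44.6 and 24.0 RPKM (log2 fold change 2.19, adjusted p = 0.0132).

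*Farsb* (1.70), *Cars* (1.61), *Nars* (1.42), *Kars* (1.30), *Lars* (1.27), *Dars* (1.16) and *Rars* (1.13) had log2 fold changes over 1 with adjusted p-values from 0.0162 to 0.0309. *Farsa* (1.21), *Mars* (1.21) and *Gars* (1.04) had log2 fold changes over 1 with adjusted p-values from 0.0923 to 0.107, and *Wars* (0.96), *Sars* (0.89) and *Qars* (0.42) had log2 fold changes under 1. *Farsa* and *Farsb* encode the subunits of 1 enzyme. On the other strand *Ddit3* overlaps 68 exon bases of *Mars*, and *Sgpp2* 9.5% of the exon bases of *Farsb*. The glutaminyl-tRNA synthetase gene *Qars* was the lowest of those on the IL-33 side, at 45.1 and 35.1 RPKM against 26.1 and 33.5 RPKM (adjusted p = 0.336), and was named after its values had been seen.

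*Vars* was the only synthetase gene of the 20 with the opposite order, and is also described after its values had been seen. It was at 38.6 and 57.3 RPKM in the IL-33 libraries, against 122 and 92.4 RPKM in the chronic HDM libraries (log2 fold change -1.16 with a standard error of 0.29, adjusted p = 0.0438). Its log2 fold change stayed below 0 in all 17 alternative settings, between -1.64 and -0.88, although several of these settings cannot change it. In the main fit it was not called. The other 19 synthetases kept a positive value in all 17, with the same limit.

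The mitochondrial synthetases, which charge tRNAs inside the organelle, served as a comparison. All 17 were tested, 1 was called, and their median log2 fold change of 0.28 equalled that of all genes. Cytosolic over mitochondrial synthetases, as summed RPKM, gave ratios of 7.35 and 8.01 in the IL-33 libraries and 4.95 and 3.36 in the chronic HDM libraries, which do not overlap. A large part of the mitochondrial sums, 370 and 333 against 251 and 281 RPKM, came from 1 gene. This was *Lars2*, at 83.4 and 64.8 against 82.2 and 144.9 RPKM, named after its values had been seen. For 14 amino acids served by separate genes, the cytosolic gene had the larger log2 fold change in 9 and the mitochondrial gene in 5. The called gene was *Sars2*, at 17.96 and 19.5 RPKM against 0 and 0.345 RPKM (log2 fold change 4.09, adjusted p = 0.00795), beside 0.89 for its cytosolic counterpart *Sars*. *Rars2* (2.16) and *Fars2* (1.93) also had larger log2 fold changes than their cytosolic counterparts and were not called. At the other end, *Aars2* was at -1.24 while *Aars* was at 1.68.

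**Figure D3:**
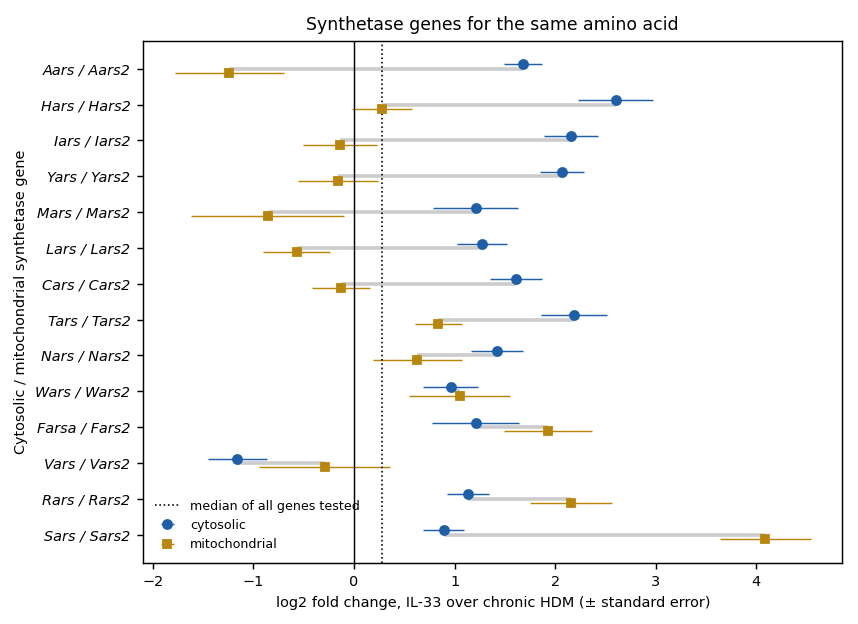
For each of 14 amino acids, the log2 fold change between IL-33 and chronic HDM of the cytosolic synthetase gene (blue circle) and of the mitochondrial one (gold square) is plotted with its standard error, ordered by their difference; the dotted line is the median of all genes tested. The cytosolic gene lies to the right in 9 pairs, and *Sars2* at 4.09 stands far to the right of its partner.

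**Figure D4:**
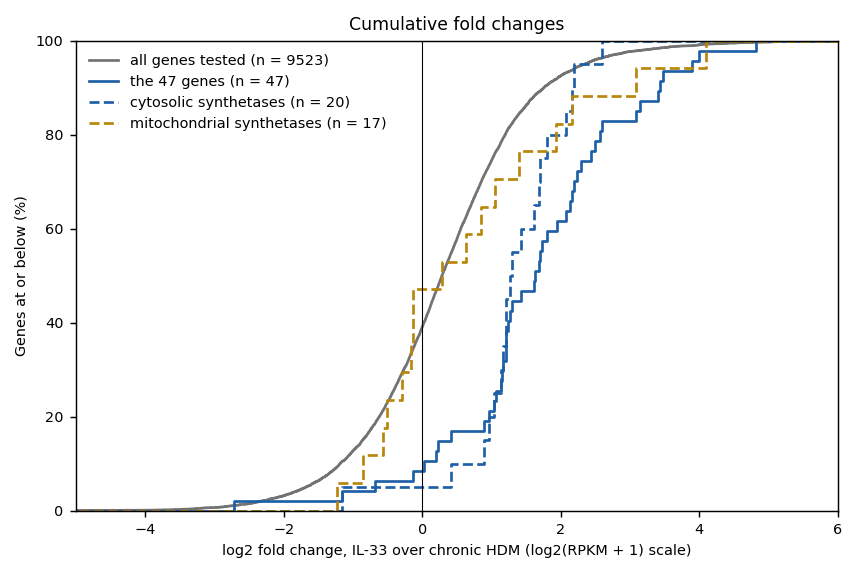
The curves give the percentage of genes at or below each log2 fold change between IL-33 and chronic HDM for all 9523 genes tested, the 47 members, the 20 cytosolic and the 17 mitochondrial synthetases. The curve of the members lies to the right of that of all genes, with medians of 1.62 and 0.28, while the mitochondrial synthetases share the median of all genes.

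Other genes of the pathway were counted in 8 lists holding 123 genes, of which 101 were tested, with 8 called higher after IL-33 (7.92%) and 0 after chronic HDM, and with 28 and 2 at an adjusted p under 0.05. Their median log2 fold change was 0.79. Among 17 kinases, phosphatase subunits and translation factors upstream of ATF4, none was called, and the median was 0.84. *Eif2b1*, a subunit of the exchange factor that phosphorylated eIF2 inhibits, came closest at 59.6 and 60.8 RPKM against 18.1 and 14.6 RPKM (log2 fold change 1.83, adjusted p = 0.0121). The eIF2α kinase genes were at log2 fold changes of 1.01 for *Eif2ak1* (HRI), 1.47 for *Eif2ak2* (PKR), -0.75 for *Eif2ak3* (PERK) and -0.67 for *Eif2ak4* (GCN2), with *Eif2ak1*, *Eif2ak3* and *Eif2ak4* named after their values had been seen, and none was called.

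Of 15 other ATF4 target genes tested, 3 were called. *Nupr1*, a small chromatin-associated stress protein, was at 355 and 266 RPKM against 29.3 and 39.6 RPKM (log2 fold change 3.14, adjusted p = 0.00687). *Eif4ebp1*, an inhibitor of cap-dependent translation, was at 244 and 213 RPKM against 58.9 and 45.6 RPKM (log2 fold change 2.12, adjusted p = 0.00718). *Ero1l*, an oxidase of the endoplasmic reticulum, was at 312 and 261 RPKM against 97.4 and 73.6 RPKM (log2 fold change 1.74). The median of this list was 0.66, and 13 of the 15 lay above 0, as did 60.9% of all genes tested. Above the median of all genes, 0.28, lay 10 of the 15.

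In the metabolic lists, 1 of 9 other serine, glycine and folate enzymes was called, *Tyms*, the thymidylate synthase, at 54.5 and 50.6 RPKM against 1.96 and 3.13 RPKM. Of 15 other enzymes of amino acid metabolism, *Pycrl* (log2 fold change 2.44) and *Oat* (log2 fold change 1.95), both of which act around proline and its precursor, were called. Of 10 other amino acid transporters, 1 was called, the arginine and lysine transporter gene *Slc7a3*, at 35.6 and 27.4 RPKM after IL-33 and without reads after chronic HDM. *Slc7a3* was at least 446.6-fold higher against the floor of 3 reads, which covers counting error only. Its relative *Slc7a2* had the opposite order, with 1.46 and 0.188 RPKM against 9.02 and 8.12 RPKM (log2 fold change -2.48, adjusted p = 0.0339).

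None of the 15 tested genes of TORC1 and amino acid sensing was called, and their median log2 fold change was 0.44. Nor was any of 4 tested proteins of the synthetase complex and tRNA export, although *Aimp2*, a scaffold of the complex, was at 146 and 161 RPKM against 28.7 and 44.3 RPKM (log2 fold change 2.07, adjusted p = 0.0109).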

How the data were processed

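Smart-seq2 libraries, without molecular identifiers, were sequenced by the authors as single 51-bp reads and aligned to mm10 with HISAT2 (2.0.4 in the submitters' processing notes). The deposited RPKM values were made by the authors with HOMER over the exons of 1 RefSeq transcript per gene, scaled to 10000000 reads, per the file headers; the authors' own test was DESeq2 in HOMER. RPKM steps gave whole reads, within 0.1, for 99.7% to 99.9% of values. On 1 kb, 3 reads are worth 0.156 to 0.255 RPKM.

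Here 9523 genes, whose mean over the 4 libraries reached 2 RPKM, were tested with limma 3.58.1 (R 4.3.3) on log2(RPKM + 1), with an intensity trend, two-sided, adjusted by Benjamini-Hochberg. Since the unit is RPKM, no count model was used as the main test. An exact permutation test of 2 against 2 libraries has a smallest two-sided p of 0.33. The procedure was also run on simulated counts, with the same dispersion for all genes of a group. That spread is simpler than in these libraries, and no result given here rests on the simulation. Members, role groups, pathway lists and the motif were chosen with earlier results of these data known. Values per library are given for every called member, the 3 largest log2 fold changes of each role group, all of groups of up to 5, *Atf4* and members under the minimum; from other lists, called genes or at most 3. *Castor1* had no match by symbol. Exon overlaps are from GENCODE M21. Gene coordinates are those of the files (mm10). Alternatives covered pseudocount, minimum, scaling, variance model, replicate block, thresholds and each library left out. A promoter stretch, a synthetase pair and a marker gene are not reported here.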

Additional observations from a re-analysis of the deposited data

How the results depend on the processing

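The count of 12 members called higher after IL-33, beside 267 of all 9523 genes, moved together with the count of all genes. It went to 0 with limma-voom on recovered reads, without the intensity trend, with a pseudocount of 0.1 and without the minimum. In each of these 0 of all genes were called. The count was 6 with quantile normalization (148 of all genes), 5 with median-of-ratios scaling (85) and 5 with scaling without 45S ribosomal RNA (53). It rose to 23 with a minimum mean of 10 RPKM (43 members tested, 639 of all 5663 genes). At an adjusted p under 0.05 it was 31 (1311 of all genes). It was 18 with a pseudocount of 2 (394), 10 with robust variances (249) and 12 with no minimum fold change (267). Leaving out 1 library gave 0 to 37. The count of 0 members higher after chronic HDM became 2 at an adjusted p under 0.05, where 455 of all 9523 genes passed. Within the IL-33 pair log2 values differed with an SD of 0.434 and within the chronic HDM pair with an SD of 1.132. A fit without 1 library assumes that the lone library varies like the other pair. The range of counts given above for these fits is therefore not read as a result, and only their log2 fold changes are used. With the replicate number as a block, 29 members were called higher after IL-33, beside 987 of all genes, and 1 after chronic HDM, beside 267. The replicate 1 minus 2 differences of the groups correlated at -0.038 over 9523 genes. This correlation cannot settle whether replicates of the same number shared a batch, and the labels give only the number. Every member's log2 fold change kept its sign in each of the 17 alternatives that tested it, except those of *Atf4*, *Atf5*, *Slc7a1* and *Slc1a5*. The alternatives for minimum, variance model, block and thresholds could not change a sign. With 3 reads as the floor, genes at 0 in the chronic HDM libraries have bounds and not fold changes, and these bounds cover counting error only.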

Other observations

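Outside the set, the letters TGATGNAA were present in the promoter windows of 147 tested genes, of which 6 were called higher after IL-33 (4.08%) and 1 after chronic HDM, while 183 of the 7191 tested genes without the letters were called higher after IL-33 (2.54%). The 6 were *Ifitm3*, *Kif2c*, *Lgals3bp*, *Nupr1*, *Prps1* and *Ubb*, named after their values had been seen, and no test was run. *Prps1*, which makes the ribose donor for nucleotide synthesis, was at 281 and 240.4 RPKM in the IL-33 libraries, against 50.4 and 26.9 RPKM in the chronic HDM libraries (log2 fold change 2.79, adjusted p = 0.00906). *Tnfaip3*, an inhibitor of NF-kB signalling, was the 1 called in the other direction, at 15.5 and 16.02 RPKM against 135 and 96.2 RPKM (log2 fold change -2.78, adjusted p = 0.00687).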
